A study of Homo sapiens with 22 samples.

Results

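The mRNAs of the subunits that build the VHL and the CRBN ubiquitin ligases were followed in leukemia cells treated with FP54. They were taken by gene symbol, VHL, ELOB, ELOC, CUL2, RBX1, CRBN, DDB1, CUL4A and CUL4B, and all 9 were found among the 20411 protein-coding genes measured. FP54 is a proteolysis-targeting chimera, a molecule that holds the m6A demethylase FTO next to VHL so that FTO is marked for the proteasome. MOLM-13 cells, an acute myeloid leukemia line, and NB4 cells, an acute promyelocytic leukemia line, received 2 μM FP54 or the solvent DMSO and were collected after 48 hours. RNA-seq of 3 libraries per treatment and cell line is described here, 12 of the 22 samples, and the 10 samples for m6A-seq and polysome-seq were not analysed here. No label says that the replicates were separate cultures, so the p-values measure the spread between these libraries only. FP54-NC, the control compound of the study that does not bind VHL, was not among these RNA-seq groups, so an effect of the VHL ligand and one of FTO loss cannot be told apart.

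Cullin-RING ligases attach ubiquitin to proteins, and they are put together from exchangeable parts. A cullin forms the scaffold, the RING protein RBX1 at one end brings in the enzyme charged with ubiquitin, and an adaptor at the other end carries a substrate receptor that picks the target. In the VHL ligase the receptor VHL sits on the adaptors elongin B and elongin C, encoded by ELOB and ELOC, and on the scaffold CUL2, and its best known target is the hypoxia factor HIF. In the CRBN ligase the receptor CRBN sits on the adaptor DDB1 and on the scaffold CUL4A or CUL4B, and thalidomide and its relatives bind CRBN. Both receptors are the ones that degrader chemistry uses most, and RBX1 serves both ligases.

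The stretch upstream of the gene is shown for CRBN, the subunit called in MOLM-13 cells, and for RBX1, the subunit with the lowest fold in NB4 cells. Each line gives the 200 bases that end 51 bases before the RefSeq gene start, on the strand of the gene, from assembly GRCh38.p14. CRBN lies on the minus strand at chr3:3179768-3179967 and RBX1 on the plus strand at chr22:40951128-40951327. Capitals mark the E-box CACGTG, a motif that reads the same on both strands.
CRBN: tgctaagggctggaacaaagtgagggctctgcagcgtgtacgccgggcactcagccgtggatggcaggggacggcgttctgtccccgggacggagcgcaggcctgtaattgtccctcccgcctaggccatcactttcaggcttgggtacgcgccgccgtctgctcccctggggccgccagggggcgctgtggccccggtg
RBX1: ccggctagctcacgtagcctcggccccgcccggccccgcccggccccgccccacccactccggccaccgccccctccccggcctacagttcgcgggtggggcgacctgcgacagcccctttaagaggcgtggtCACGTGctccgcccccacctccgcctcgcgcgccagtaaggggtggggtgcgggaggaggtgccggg
The E-box lay 117 bases before the RBX1 start and was absent from the CRBN stretch. Of the members, 7 had entries among the promoter sequences, with 16 stretches between them, and VHL and ELOC had none. An E-box was found in a stretch of CUL4B and of RBX1, and CCAAT on either strand for CUL4B alone. Of all 35116 stretches of this length, 4.51% held an E-box and 27.4% a CCAAT. Members are counted here by gene and the background by stretch, so the figures are not like for like. A match describes the letters only.

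Values are RPKM as deposited, which scale the reads of a gene by its length and by the total reads of the library. These are bulk samples, in which fewer cells of a type and less RNA per cell cannot be told apart. The libraries held 5829729 to 22344268 reads on genes, and every NB4 library treated with FP54 was shallower, at 10595663 to 13071313 reads, than every NB4 library treated with DMSO, at 20654062 to 22344268 reads. The olfactory receptor genes, which blood cells are not known to use, averaged 0.0509 to 0.0544 RPKM in the NB4 libraries with FP54 and 0.00175 to 0.00387 RPKM in those with DMSO, against 0.00381 to 0.00833 RPKM in MOLM-13 cells, and taking this level off each library changed no call of a subunit. All 6 myeloid markers averaged at least 1 RPKM in both lines, and their sum moved with treatment. For MOLM-13 it was 726 to 777 RPKM with DMSO and 803 to 1044 RPKM with FP54. For NB4 it was 2172 to 2418 RPKM with DMSO and 1203 to 1272 RPKM with FP54. Most of the NB4 sum was MPO, at 2036 to 2263 RPKM with DMSO and 1082 to 1149 RPKM with FP54. In MOLM-13 cells MPO went against the sum, at 12.8 to 18.1 RPKM with DMSO and 3.29 to 4.64 RPKM with FP54. CD33, another of the 6, was at 12.7 to 14.1 RPKM in NB4 and 30.3 to 36.0 RPKM in MOLM-13 cells over both treatments. The 5 erythroid markers summed to at most 0.235 RPKM in any library. Lymphoid markers summed to 0.729 to 1.56 RPKM in MOLM-13 cells, and for NB4 to 7.09 to 8.47 RPKM with DMSO and 11.7 to 12 RPKM with FP54. Epithelial and fibroblast markers summed to 0.835 to 1.90 RPKM in MOLM-13 cells, and for NB4 to 8.94 to 9.62 RPKM with DMSO and 10.5 to 13.6 RPKM with FP54. The part of the myeloid, lymphoid and epithelial and fibroblast lists in the results was not tested. All 4 MOLM-13 markers averaged at least 1 RPKM in MOLM-13 cells. HOXA9 and MEIS1 were below 1 RPKM in NB4 cells. FLT3 was at 4.46 to 6.04 RPKM in NB4 cells against 51.1 to 91.8 RPKM in MOLM-13 cells. HOXA10 went the other way and was higher in NB4 cells, at 11.3 to 14.1 RPKM against 6.64 to 9.76 RPKM. Of the 4 NB4 markers 3 stood higher in MOLM-13 cells. ELANE was at 0 to 0.218 RPKM in NB4 cells, against 122 to 240 RPKM in MOLM-13 cells, AZU1 at 6.70 to 11.7 RPKM against 149 to 251 RPKM, and PRTN3 at 14.7 to 69.0 RPKM against 255 to 508 RPKM. HGF was above 1 RPKM in NB4 cells with DMSO only.

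FTO mRNA, which encodes the protein that FP54 targets, was at 1.09, 0.938 and 1.01 RPKM in MOLM-13 cells with DMSO and at 0.897, 1.00 and 1.13 RPKM with FP54, so the groups overlapped. In NB4 cells it was at 2.86, 2.52 and 2.81 RPKM with DMSO and 2.11, 1.95 and 2.03 RPKM with FP54, and all treated libraries were lower. The log2 fold change of FTO was -0.0049 ± 0.21 (SE, n = 3 against 3) in MOLM-13 cells, with a limma adjusted p of 0.989, and -0.41 ± 0.11 in NB4 cells, with a limma adjusted p of 0.0119. Because the drug acts on the protein, these values do not check the treatment.

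FP54 was set against DMSO for each subunit by limma on log2(RPKM + 0.1), and a gene was called at a Benjamini-Hochberg adjusted p below 0.05 over all tested genes. All 9 subunits passed the filter, a mean of at least 1 RPKM over the 6 libraries, in both lines. In MOLM-13 cells 1 subunit was called higher, CRBN, and 0 lower, and in NB4 cells 1 was called higher, VHL, and 3 lower, RBX1, ELOB and DDB1. Of all 9710 genes tested in MOLM-13 cells 19.2% were called, 9.84% higher and 9.32% lower. Of the 9853 tested in NB4 cells 51.8% were called, 29.8% higher and 22.0% lower. Over both directions, the number of subunits called therefore lay below the share of all genes called in each line. The 3 of 9 called lower in NB4 cells lay above the 22.0% of all genes, a gap that rests on few genes. Before adjustment the p-value was under 0.05 for 5 subunits in MOLM-13 cells, beside 35.0% of all tested genes, and for 4 in NB4 cells, beside 58.0%. At the cutoff of the study, which asks for an unadjusted p under 0.01 and for an absolute log2 fold change of 0.5 or more, 1 subunit was called in each line, CRBN in MOLM-13 and RBX1 in NB4 cells, where 18.3% and 29.3% of all genes passed. The median log2 fold change over the subunits was -0.27 in MOLM-13 cells, beside 0.0033 for all tested genes, and -0.23 in NB4 cells, beside 0.07 for all tested genes.

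**Figure D1:**
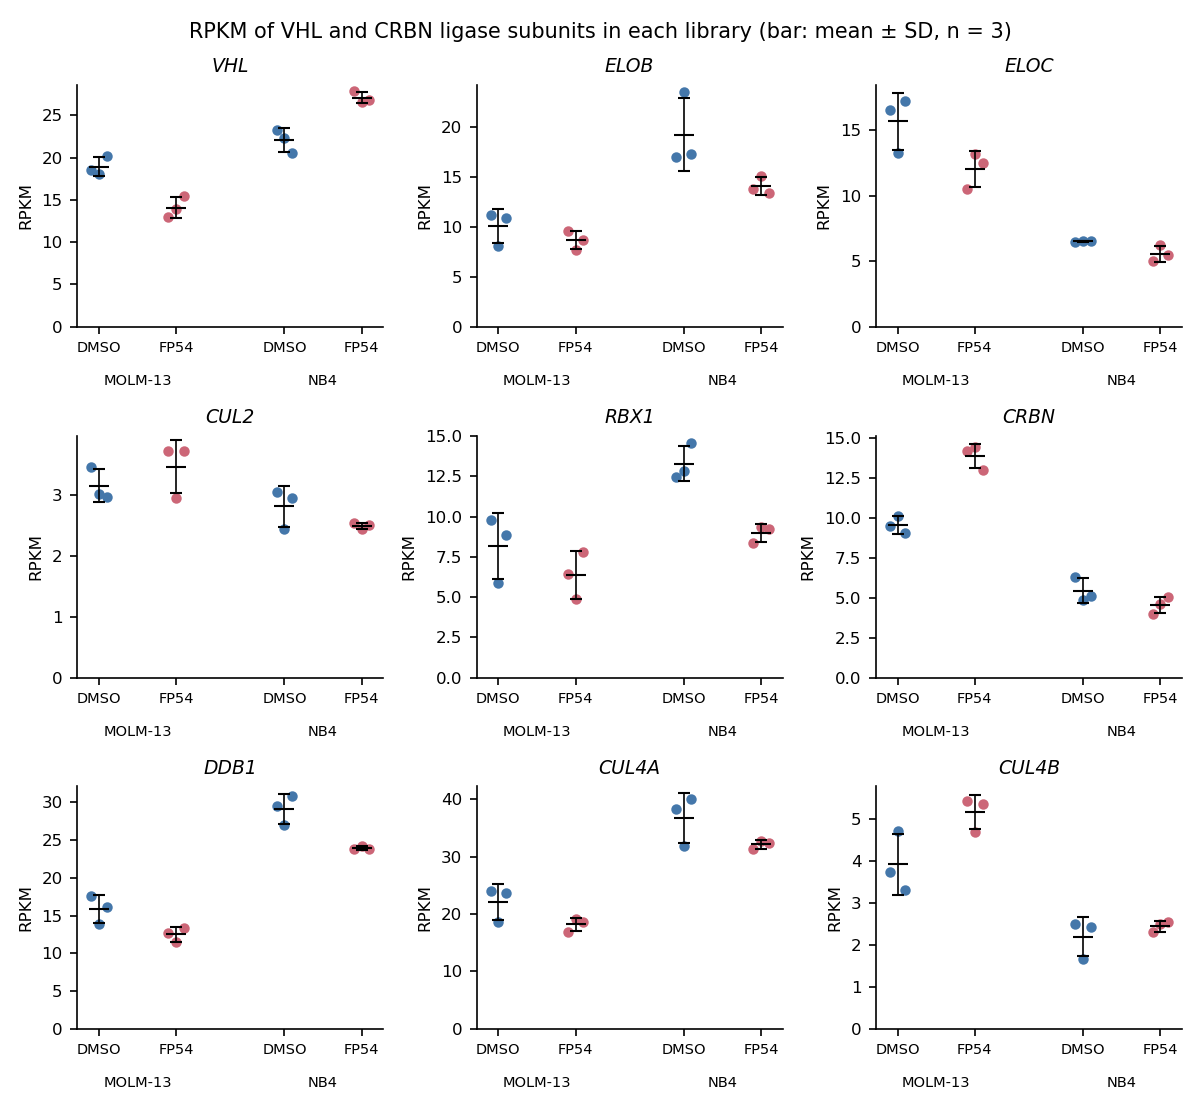
RPKM of the 9 subunit mRNAs, 1 panel a gene, with the linear axis starting at 0. Points are libraries treated with DMSO (blue) or FP54 (red), and bars give the mean ± SD of 3 libraries. The red points of VHL lie below the blue in MOLM-13 and above them in NB4 cells, and those of CRBN lie above the blue in MOLM-13 cells.

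VHL, the receptor that FP54 recruits, had fitted changes of opposite sign in the 2 lines. In MOLM-13 cells it was at 18.6, 18.0 and 20.2 RPKM with DMSO and 12.9, 14.0 and 15.4 RPKM with FP54. In NB4 cells it was at 23.3, 22.3 and 20.6 RPKM with DMSO and 27.9, 26.6 and 26.9 RPKM with FP54. The treatments did not overlap in either line, with FP54 lower in MOLM-13 and higher in NB4 cells. The log2 fold change in MOLM-13 cells was -0.42 ± 0.14 (SE), with a limma adjusted p of 0.0530 that missed the threshold. In NB4 cells it was 0.30 ± 0.08 (SE), with a limma adjusted p of 0.0118, and VHL rose to 123% of its DMSO mean. Scaling the NB4 libraries by median ratio, which moved the median log2 fold change of all genes from 0.07 to -0.13, left VHL at 0.10 with an adjusted p of 0.359, and without FP54 replicate 1 the adjusted p was 0.0511. In MOLM-13 cells VHL passed the threshold in 4 of 18 other settings.

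CRBN, the receptor of the other ligase, rose in MOLM-13 cells. Libraries with DMSO held 9.48, 10.1 and 9.07 RPKM and those with FP54 14.2, 14.4 and 13 RPKM, and every treated library was above every control. The log2 fold change was 0.53 ± 0.13 (SE), with a limma adjusted p of 0.0236, and CRBN rose to 145% of its DMSO mean. In NB4 cells CRBN was at 6.32, 4.89 and 5.11 RPKM with DMSO and 4.00, 4.60 and 5.05 RPKM with FP54, and the groups overlapped. There the log2 fold change was -0.25 ± 0.13 (SE), with a limma adjusted p of 0.130. CRBN was called lower in NB4 cells by median ratio, at -0.45 (adjusted p = 0.00631), by quantile normalization, at -0.43 (adjusted p = 0.00847), and without DMSO replicate 2, at -0.32 (adjusted p = 0.0459), while without DMSO replicate 1 or FP54 replicate 1 it was at -0.14 and -0.16 and not called. The MOLM-13 call was lost without DMSO replicate 1 (adjusted p = 0.0901), DMSO replicate 3 (adjusted p = 0.119) or FP54 replicate 1 (adjusted p = 0.0879), with fitted changes of 0.49 to 0.53, and it was also lost with no filter on low values (adjusted p = 0.0516) and with the replicate block (adjusted p = 0.0550). It held in the other 3 fits that left out a library, and over all 18 other settings in 13.

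The elongin adaptors, which VHL shares with other receptors such as the SOCS box proteins, were lower in NB4 cells for ELOB. ELOB stood at 16.9, 23.4 and 17.2 RPKM with DMSO and 13.8, 15.1 and 13.3 RPKM with FP54 in NB4 cells, without overlap. Its log2 fold change was -0.43 ± 0.13 (SE), with a limma adjusted p of 0.0148, which became 0.0538 without FP54 replicate 1, 0.0570 without FP54 replicate 3 and 0.0825 with no filter. Without DMSO replicate 2, its highest library, the ELOB change was -0.28 and was still called. In MOLM-13 cells ELOB was at 11.2, 8.11 and 10.8 RPKM with DMSO and 9.58, 7.72 and 8.69 RPKM with FP54, overlapping, with a limma adjusted p of 0.418. ELOC was at 6.50, 6.52 and 6.56 RPKM with DMSO and 5.02, 6.24 and 5.48 RPKM with FP54 in NB4 cells, where the groups did not overlap. In MOLM-13 cells ELOC was at 16.6, 13.2 and 17.3 RPKM with DMSO and 10.5, 13.2 and 12.5 RPKM with FP54, and its treated libraries also lay just under its controls. Its log2 fold changes of -0.37 in MOLM-13 and -0.23 in NB4 cells had limma adjusted p-values of 0.121 and 0.0910, above the threshold. ELOC was called lower in NB4 cells by median ratio, at -0.42 (adjusted p = 0.00478), and by quantile normalization, at -0.37 (adjusted p = 0.0121), and in MOLM-13 cells without DMSO replicate 2, at -0.49 (adjusted p = 0.04998).

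RBX1, the RING subunit of both ligases, had the lowest fold change of the 9 subunits in NB4 cells. With DMSO it was at 12.5, 12.8 and 14.5 RPKM and with FP54 at 8.36, 9.34 and 9.25 RPKM, so all treated libraries were lower. The log2 fold change was -0.56 ± 0.10 (SE), with a limma adjusted p of 0.000812, and RBX1 fell to 67.6% of its DMSO mean. It was called lower in all 18 other settings run in NB4 cells. In MOLM-13 cells RBX1 was at 9.78, 5.87 and 8.84 RPKM with DMSO and 6.40, 4.88 and 7.82 RPKM with FP54, overlapping, with a log2 fold change of -0.35 ± 0.23 (SE) and a limma adjusted p of 0.306. Its depth there was low, 88.0 reads in FP54 replicate 2 and 296 to 500.0 reads in the controls.

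DDB1, the adaptor that links CRBN to its cullin, fell in NB4 cells, from 29.5, 27.0 and 30.9 RPKM with DMSO to 23.8, 24.2 and 23.8 RPKM with FP54. The log2 fold change was -0.28 ± 0.08 (SE), with a limma adjusted p of 0.0157. Leaving out NB4 DMSO replicate 3 or FP54 replicate 1, 2 or 3 gave adjusted p-values of 0.0615, 0.0532, 0.0554 and 0.0616, and quantile normalization gave 0.0769, all with DDB1 lower. Its change was -0.48 by median ratio and -0.19 by quantile normalization. In MOLM-13 cells DDB1 was at 17.6, 13.8 and 16.2 RPKM with DMSO and 12.7, 11.5 and 13.3 RPKM with FP54, without overlap, and the log2 fold change of -0.34 ± 0.15 (SE) had a limma adjusted p of 0.129.

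None of the 3 cullin scaffolds passed the threshold in either line on the RPKM as deposited with all libraries. CUL2, the scaffold of the VHL ligase, was at 3.46, 3.02 and 2.98 RPKM with DMSO and 3.72, 2.96 and 3.72 RPKM with FP54 in MOLM-13 cells. In NB4 cells CUL2 was at 3.06, 2.44 and 2.96 RPKM with DMSO and 2.53, 2.44 and 2.51 RPKM with FP54, overlapping as in MOLM-13 cells. CUL4A was at 23.9, 18.5 and 23.7 RPKM with DMSO and 16.9, 19.1 and 18.7 RPKM with FP54 in MOLM-13 cells. Its NB4 levels were 38.3, 31.8 and 40.0 RPKM with DMSO and 31.3, 32.8 and 32.3 RPKM with FP54, and the treatments overlapped in both lines. CUL4B, the other scaffold that DDB1 binds, was at 3.75, 4.72 and 3.30 RPKM with DMSO and 5.44, 4.69 and 5.37 RPKM with FP54 in MOLM-13 cells. In NB4 cells CUL4B was at 2.51, 1.66 and 2.42 RPKM against 2.29, 2.50 and 2.55 RPKM. Log2 fold changes in MOLM-13 cells were 0.13 for CUL2, -0.27 for CUL4A and 0.40 for CUL4B, and in NB4 cells -0.16, -0.19 and 0.17, with limma adjusted p-values from 0.132 to 0.628 over the lines. CUL2 was called lower in NB4 cells by median ratio, at -0.35 (adjusted p = 0.0202), and by quantile normalization, at -0.45 (adjusted p = 0.00602). CUL4A was called lower there by median ratio, at -0.38 (adjusted p = 0.00588), and without DMSO replicate 2, at -0.28 (adjusted p = 0.00361), but was at -0.09 by quantile normalization. CUL4B was called higher in MOLM-13 cells without DMSO replicate 2, at 0.54 (adjusted p = 0.0470). The sign of the CUL4B change in NB4 cells turned under median-ratio scaling, at -0.02, and under quantile normalization, at -0.16.

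**Figure D2:**
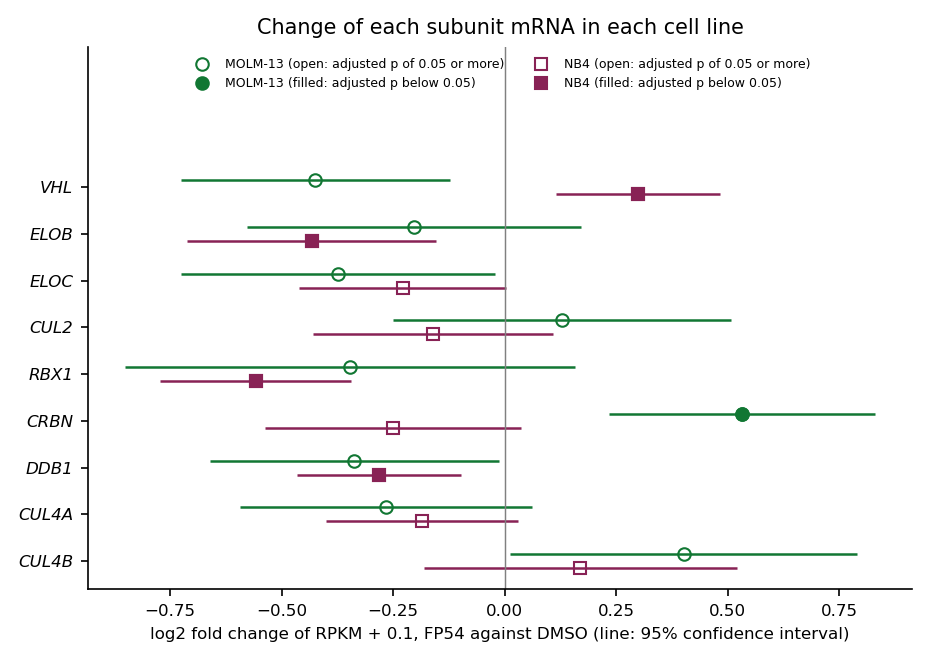
Log2 fold change of each subunit, FP54 against DMSO, in MOLM-13 (circles) and NB4 cells (squares), with 95% confidence intervals from limma. Filled symbols passed an adjusted p of 0.05: CRBN in MOLM-13 cells, and VHL, ELOB, RBX1 and DDB1 in NB4 cells. The intervals of VHL lie on opposite sides of 0 in the 2 lines.

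In MOLM-13 cells the 3 libraries of each treatment did not overlap for 4 subunits, 3 lower with FP54 and 1 higher, beside 37.1% of all tested genes, 17.0% lower and 20.2% higher. In NB4 cells they did not overlap for 5 subunits, 4 lower and 1 higher, beside 60.5% of all genes, 26.2% lower and 34.3% higher. Scaling changed the balance of calls over all genes in NB4 cells, from 2935 higher and 2164 lower as deposited to 1889 and 3602 by median ratio and 2334 and 2774 by quantile normalization. Among the subunits, median-ratio scaling gave 0 higher and 7 lower in NB4 cells, all but VHL and CUL4B, and quantile normalization gave 1 higher and 5 lower.

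Whether FP54 acted differently on a subunit in the 2 lines was tested by the interaction of line and treatment, with all 12 libraries in 1 limma fit. VHL and CRBN, the receptors, passed, and the adaptors, RBX1 and the cullins did not, except CUL2 under quantile normalization, at -0.57 (adjusted p = 0.0261). For VHL the log2 fold change was 0.72 higher in NB4 than in MOLM-13 cells (SE 0.15, 95% confidence interval 0.40 to 1.04, limma adjusted p 0.00468). For CRBN it was lower in NB4 cells, with a difference of -0.78 (SE 0.18, 95% confidence interval -1.18 to -0.39, limma adjusted p 0.0105). Over the 8849 genes tested in both lines 14.2% passed, 10.5% higher and 3.75% lower in NB4 cells, and 15.5% passed the cutoff of the study, where the same 2 subunits passed. Scaling moved the balance over all genes from 926 higher and 332 lower to 630 and 834 by median ratio and 857 and 811 by quantile normalization. VHL passed in all 24 other settings, at 0.55 to 0.79, and CRBN in all 23 in which it was tested, at -0.97 to -0.67. Among all genes, 9.28% passed with fitted changes of opposite sign in the 2 lines, as VHL and CRBN did. VHL also had non-overlapping treatments in both lines in opposite directions, which held for 4.31% of all genes.

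For the other 7 subunits the difference between the lines ran from -0.29 for CUL2 to 0.15 for ELOC on the log2 scale, with limma adjusted p-values of 0.359 to 0.859. These intervals remained wide, such as -0.78 to 0.36 for RBX1 and -0.34 to 0.40 for DDB1, and a p above the threshold does not show that the lines responded alike.

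Ratios of 2 subunits within a library do not change when each library is multiplied by a single factor, as median-ratio scaling does, but they do under quantile normalization. They are given on the RPKM as deposited. The CRBN/VHL ratio was 0.507 ± 0.056 (SD, n = 3) with DMSO and 0.991 ± 0.131 with FP54 in MOLM-13 cells, where controls ran from 0.450 to 0.562 and treated libraries from 0.844 to 1.10. In NB4 cells the ratio was 0.246 ± 0.026 with DMSO and 0.168 ± 0.023 with FP54, from 0.219 to 0.271 and from 0.143 to 0.188. So every treated library was above its controls in MOLM-13 and below them in NB4 cells. The log2 differences were 0.96 in MOLM-13 and -0.55 in NB4 cells, each with an exact permutation p of 0.1, the smallest that 3 against 3 allows.

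Over both lines, the mean change of 7 ratios was tested by an exact two-sided permutation of treatment within each line, over 400 labelings. None of the 7 passed after adjustment. CUL4A/CUL4B came nearest, with a mean log2 change of -0.52 (exact permutation p 0.01, adjusted over the 7 ratios 0.07), followed by DDB1/CRBN at -0.45 (exact permutation p 0.04, adjusted 0.14). CUL4A/CUL4B went from 5.84 ± 1.70 to 3.55 ± 0.48 (SD) in MOLM-13 cells, where 1 treated library lay above 1 control, and from 17.0 ± 2.01 to 13.2 ± 0.46 in NB4 cells without overlap. DDB1/CRBN went from 1.67 ± 0.26 to 0.905 ± 0.116 in MOLM-13 cells and from 5.41 ± 0.69 to 5.31 ± 0.62 in NB4 cells.

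The difference of these changes between the lines, a statistic chosen after the data were seen, passed for 3 of the 7 ratios. Treatment was again permuted within each line, so these p-values are against no effect of FP54 in either line. They do not test whether the lines had equal effects. NB4 minus MOLM-13 was -1.52 for CRBN/VHL and -1.03 for CUL2/VHL on the log2 scale, each with an exact permutation p of 0.005, the smallest that the 400 labelings allow, and 0.0175 adjusted over the 7 ratios. For ELOB/VHL it was -0.96 (exact permutation p 0.02, adjusted 0.0467), and for ELOC/VHL -0.58 (exact permutation p 0.03, adjusted 0.0525). All of the 4 ratios hold VHL, so they are not independent of each other or of the interaction of VHL. ELOB/VHL no longer passed without MOLM-13 DMSO replicate 2 or 3, MOLM-13 FP54 replicate 1, or NB4 FP54 replicate 1, 2 or 3, with adjusted p-values up to 0.0933. CRBN/VHL and CUL2/VHL passed without any one of the 12 libraries. The other 3 ratios gave adjusted p-values of 0.098 for DDB1/CRBN, 0.193 for ELOB/ELOC and 0.46 for CUL4A/CUL4B.

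**Figure D3:**
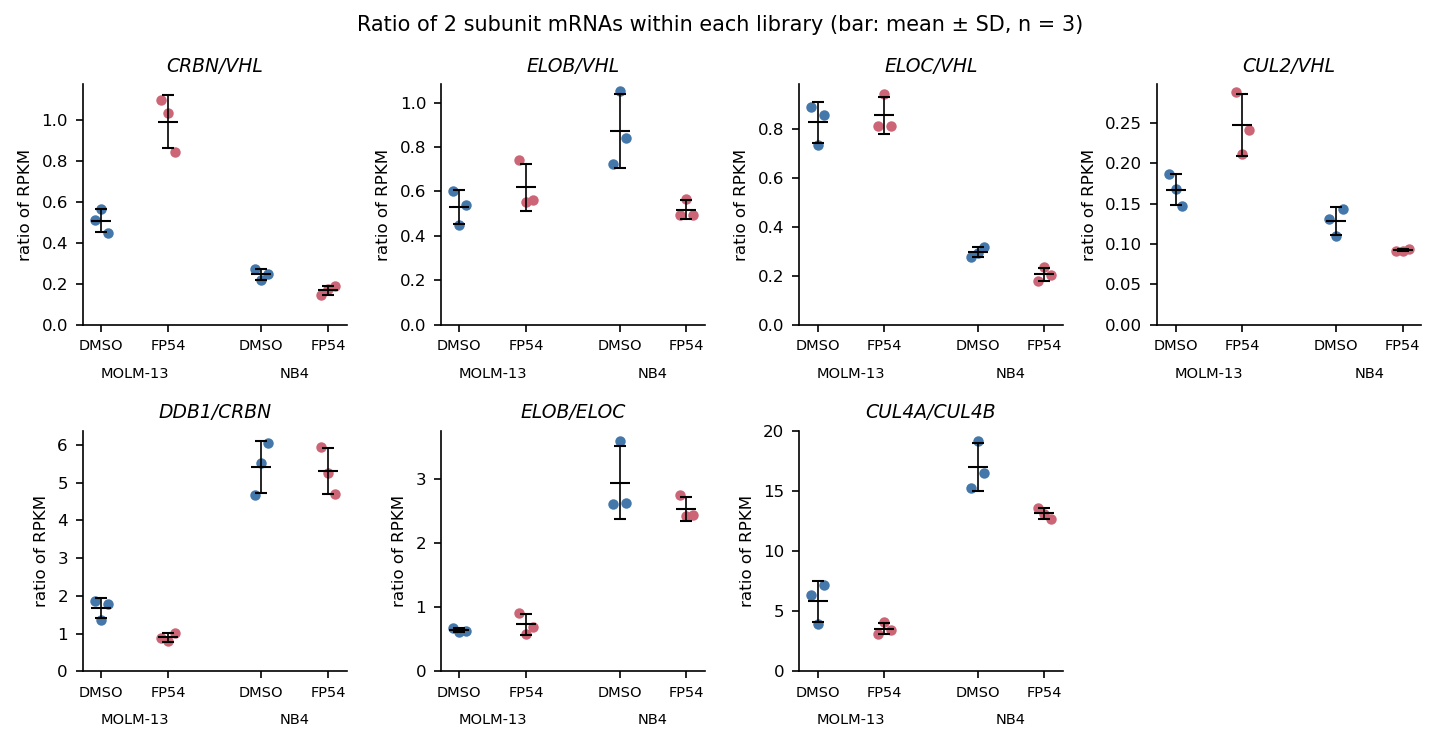
Ratio of the RPKM of 2 subunits in each library, 1 panel a ratio, on linear axes from 0. Points are libraries with DMSO (blue) or FP54 (red), and bars give the mean ± SD of 3 libraries. The CRBN/VHL points with FP54 lie at 0.844 to 1.10 in MOLM-13 cells, above the controls, and at 0.143 to 0.188 in NB4 cells, below them.

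The level of each subunit with DMSO was set in order within each line, on the RPKM as deposited, which divide by the length of all annotated exons. In MOLM-13 cells the order was CUL4A at 22.1 ± 3.07 RPKM (SD, n = 3), VHL at 18.9 ± 1.11, DDB1 at 15.8 ± 1.88, ELOC at 15.7 ± 2.16, ELOB at 10.0 ± 1.69, CRBN at 9.56 ± 0.54, RBX1 at 8.16 ± 2.04, CUL4B at 3.92 ± 0.72 and CUL2 at 3.15 ± 0.27. Neighbours overlapped there except for VHL over DDB1, ELOC over ELOB and RBX1 over CUL4B. In NB4 cells the order was CUL4A at 36.7 ± 4.30 RPKM, DDB1 at 29.1 ± 1.99, VHL at 22.1 ± 1.40, ELOB at 19.2 ± 3.67, RBX1 at 13.3 ± 1.10, ELOC at 6.52 ± 0.03, CRBN at 5.44 ± 0.77, CUL2 at 2.82 ± 0.33 and CUL4B at 2.20 ± 0.47. Only VHL with ELOB and CUL2 with CUL4B overlapped among these neighbours. The 2 tables were normalized separately, so levels in the 2 lines stand side by side without a test.

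With FP54 the first place stayed with CUL4A in both lines. CRBN stood at place 3 in MOLM-13 cells with FP54, at 13.9 ± 0.76 RPKM (SD, n = 3), next to VHL at 14.1 ± 1.24 RPKM and overlapping it. In NB4 cells VHL passed DDB1 to the second place, at 27.1 ± 0.70 against 23.9 ± 0.24 RPKM, with no overlap between them.

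This order depends on the gene length. CUL4B carries 33815 bases of annotated exons but 5915 in its canonical transcript, ELOB 5714 and 974, and VHL 5001 and 4414. On canonical lengths, a choice made after the lengths were seen, the order in MOLM-13 cells began with ELOC at 72.3 ± 9.95 RPKM (SD, n = 3), ELOB at 58.9 ± 9.92 and DDB1 at 57.9 ± 6.89, and VHL came at place 8 with 21.4 ± 1.26. In NB4 cells it began with ELOB at 113 ± 21.5 RPKM, DDB1 at 106 ± 7.29 and CUL4A at 49.3 ± 5.77, and VHL came at place 6 with 25.0 ± 1.58. CUL2 was the lowest on this length in both lines, at 10.9 ± 0.93 RPKM in MOLM-13 and 9.76 ± 1.16 RPKM in NB4 cells. Fold changes of a gene between treatments do not depend on the length.

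**Figure D4:**
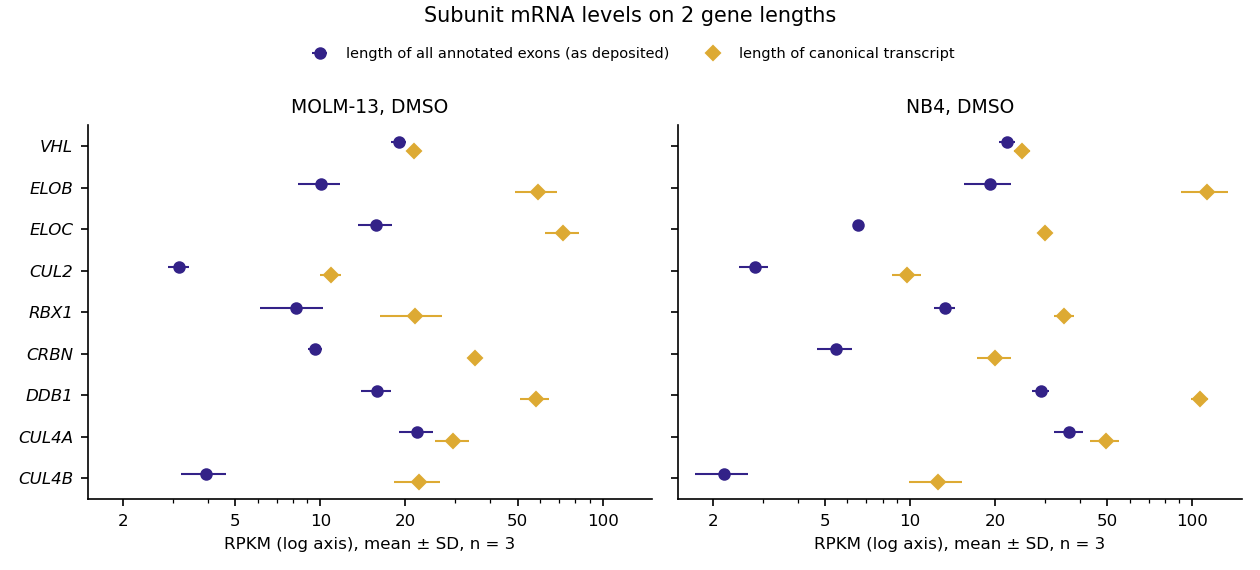
Level of each subunit mRNA with DMSO in MOLM-13 and NB4 cells, as mean ± SD of 3 libraries on a log axis. Circles divide by the length of all annotated exons, as deposited, and diamonds by the canonical transcript. VHL changes little between the lengths, while ELOB goes from 19.2 to 113 RPKM in NB4 cells.

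Several genes share sequence with neighbours or copies, and the counting is not stated to use strand. Exons of CRBN, CUL2, CUL4A, DDB1 and ELOB overlap those of TRNT1, CREM, PCID2, TKFC and SRRM2 on the opposite strand, and VHL overlaps a long noncoding RNA on the opposite strand. Exons of CUL2 also overlap those of a long noncoding RNA on the same strand, which stranded counting would not separate. By symbol, the annotation also holds 35 pseudogenes of ELOC, 4 of ELOB, 2 of RBX1 and 1 of CUL4A. Reads of such pairs may not be told apart.

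Genes around the 2 ligases were read in 9 lists, which were written with earlier results of these data known. All counts of these lists stand beside the shares of all tested genes called, 9.84% higher and 9.32% lower in MOLM-13 cells and 29.8% higher and 22.0% lower in NB4 cells. The list of the COP9 signalosome, which removes the NEDD8 mark from cullins, and of the CAND exchange factors had 0 of 11 tested genes higher and 7 lower in NB4 cells. The median log2 fold change of that list was -0.34 beside 0.07 for all genes, and 9 genes were lower by median-ratio scaling, beside 36.6% of all genes, and 6 by quantile normalization, beside 28.2%. COPS9 went from 8.97 ± 0.66 to 4.72 ± 0.88 RPKM (SD, n = 3; log2 fold change -0.92, limma adjusted p 0.000251) and GPS1, its first subunit, from 18.6 ± 2.73 to 11.3 ± 0.66 RPKM (-0.71, limma adjusted p 0.000429). In MOLM-13 cells 0 of 11 genes of this list were called in either direction by limma.

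Other receptors of the 2 ligases changed in both directions. Of the CUL2 receptors, 2 of 10 tested were higher and 1 lower in MOLM-13 cells, and 2 of 11 higher and 1 lower in NB4 cells. LRR1, a receptor that takes apart the replisome, was lower in both lines, with log2 fold changes of -0.89 in MOLM-13 and -0.49 in NB4 cells (limma adjusted p 0.0445 and 0.00131). Its treatments overlapped in MOLM-13 cells, at 4.98, 2.73 and 4.55 RPKM with DMSO and 2.00, 1.57 and 2.86 RPKM with FP54. ZER1 and KLHDC2, which read the ends of proteins, rose by 0.72 in MOLM-13 and by 0.36 in NB4 cells respectively (limma adjusted p 0.0192 and 0.0193), and in NB4 cells 0 CUL2 receptors were higher after either scaling. Of the DDB1 receptors, 0 of 19 were higher and 1 lower in MOLM-13 cells, and 4 of 20 higher and 5 lower in NB4 cells. Median-ratio scaling gave 2 higher and 10 lower in NB4 cells, and quantile normalization 4 and 9, beside 36.6% and 28.2% of all genes lower. The 1 lower in MOLM-13 cells was DCAF13, which also takes part in ribosome assembly, from 16.6 ± 4.18 to 6.60 ± 1.93 RPKM (-1.33, limma adjusted p 0.00864). In NB4 cells DDB2, the sensor of ultraviolet damage, rose from 3.85 ± 0.50 to 6.79 ± 0.30 RPKM (0.81, limma adjusted p 0.000237) and WDTC1 from 8.39 ± 0.57 to 12.9 ± 0.50 RPKM (0.61, limma adjusted p 0.000317).

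Among other partners of elongin B and C, 0 of 12 were higher and 1 lower in MOLM-13 cells, and 4 of 14 were higher and 2 lower in NB4 cells. The SOCS box receptors WSB2 and WSB1 had the largest rises of the list in NB4 cells, WSB2 from 2.26 ± 0.07 to 6.55 ± 0.50 RPKM (1.49, limma adjusted p 2.31e-06) and WSB1 from 21.9 ± 1.01 to 55.3 ± 8.98 RPKM (1.32, limma adjusted p 8.57e-06). SOCS4 was the lower one in MOLM-13 cells (-0.58, limma adjusted p 0.0453). In the neddylation list, 1 of 9 was higher and 2 lower in MOLM-13 cells and 2 of 9 higher and 2 lower in NB4 cells. DCUN1D5, which helps NEDD8 onto cullins, fell in both lines (-0.78 and -0.76, limma adjusted p 0.0372 and 0.000158). UBE2F, a NEDD8 carrier, rose in MOLM-13 cells (0.79, limma adjusted p 0.0242) and DCUN1D3 in NB4 cells (0.78, limma adjusted p 0.000527).

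Ubiquitin E1 and E2 enzymes counted 0 of 11 higher and 1 lower in MOLM-13 cells, which was UBE2G2 (-0.89, limma adjusted p 0.0250), and 3 of 12 higher and 2 lower in NB4 cells, among them UBE2D4 (0.39, limma adjusted p 0.0204) and UBE2L3 (-0.38, limma adjusted p 0.00249). Median-ratio scaling gave 0 higher and 5 lower in NB4 cells, and quantile normalization 2 and 2, beside 36.6% and 28.2% of all genes lower. Of the other cullins, CUL1 was the 1 of 5 lower in MOLM-13 cells (-0.48, limma adjusted p 0.0477), and CUL9 and CUL7 were the 2 of 5 higher in NB4 cells, with 1 lower (0.91 and 0.78, limma adjusted p 5.58e-05 and 0.000261). Of 7 other ligases used by degraders, MDM2, the p53 ligase, was lower in MOLM-13 cells (-0.60, limma adjusted p 0.0325), and BIRC3 was higher in NB4 cells (1.15, limma adjusted p 8.58e-05). Among targets that CRBN takes with thalidomide relatives, GSPT1, a translation release factor, was lower in both lines (-0.61 and -0.57, limma adjusted p 0.0385 and 0.000237), the 1 of 4 lower in MOLM-13 cells. In NB4 cells 1 of 5 was higher, CSNK1A1 (0.30, limma adjusted p 0.0206), and 1 lower. By median ratio 0 of these targets were higher and 2 lower there, and by quantile normalization 2 and 2.

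**Figure D5:**
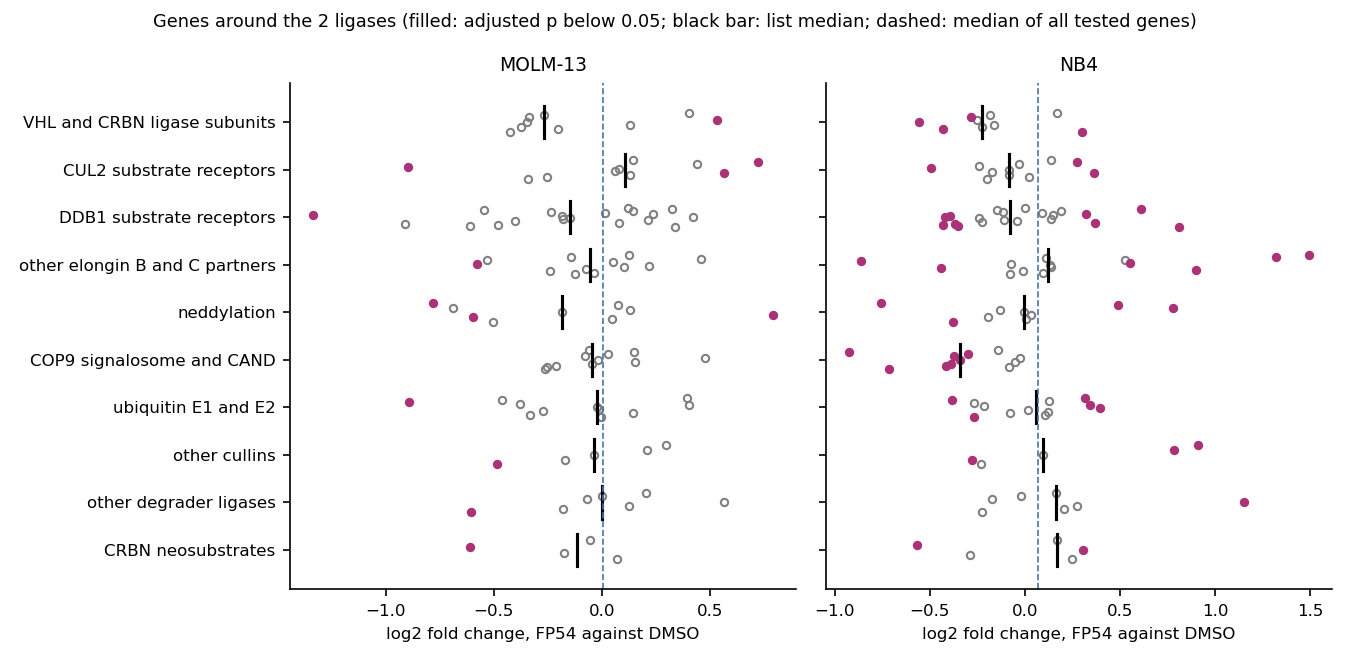
Log2 fold change, FP54 against DMSO, of the subunits and of the genes in 9 lists around them, in MOLM-13 and NB4 cells. Each point is a gene, filled where the adjusted p was below 0.05, black bars are list medians and the dashed line is the median of all tested genes. In NB4 cells the COP9 signalosome and CAND list holds 7 filled points below 0 and 0 above.

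The genes most like VHL and CRBN were sought by the Pearson correlation of log2(RPKM + 0.1), centred within each line, over the 12 libraries and the 8849 genes tested in both lines. These points share treatment and depth, so the values describe the libraries only. Most like VHL were MARS1, the cytosolic methionyl-tRNA synthetase, at 0.97, TXLNA at 0.97 and PTPN7, a phosphatase of blood cells, at 0.95. Their log2 fold changes in MOLM-13 and NB4 cells were -0.72 and 0.51 for MARS1, -0.55 and 0.38 for TXLNA and -0.82 and 0.40 for PTPN7. These genes were chosen for their likeness over the same libraries, which fixes the signs and favours large changes, so their changes are a description with no test. Most like CRBN were UGP2, which makes UDP-glucose, at 0.93, TCTN2 at 0.91 and PPWD1 at 0.91. Chosen in the same way, they had log2 fold changes of 0.35, 0.96 and 0.37 in MOLM-13 cells and of -0.06, -0.19 and -0.12 in NB4 cells. Between VHL and CRBN themselves the correlation was -0.83, and between RBX1 and DDB1 0.92.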

How the data were processed

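The authors made the RNA-seq libraries of both cell lines from RNA selected for poly(A) tails in 2 rounds, with a stranded total RNA kit. According to their methods and processing notes, reads were trimmed (Cutadapt 4.8), freed of duplicates (Clumpify), aligned to hg38 (STAR 2.7.11b) and counted on GENCODE 42 protein-coding genes (featureCounts 2.0.3). The values the authors deposited are RPKM, which their methods define as reads scaled by transcript length and by mapped reads. That the NB4 values belong to NB4 cells is known from the name of their table alone. Lengths of all exons from GENCODE 44, known for 20329 genes, turned 98.7 to 99.3% of the values of 1 to 20 reads into whole reads (tolerance 0.05 reads), which gave the depths stated.

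Each line had its own limma 3.58.1 fit of log2(RPKM + 0.1) (lmFit, eBayes with an intensity trend) in R 4.3.3 for genes with a mean of at least 1 RPKM, with no covariate, and p-values were adjusted by Benjamini-Hochberg over all tested genes. The methods name DESeq2, which needs counts and was not used. Ratios were tested in Python 3.11.15 with numpy 2.4.6, pandas 2.3.3 and scipy 1.17.1, by exact permutation, and figures drawn with matplotlib 3.10.9. The fit and the permutation were tested on simulated data. Of 200 genes given a log2 change of 1, the fit recovered 63.5% in MOLM-13 cells, 87% in NB4 cells and 63.5% for the interaction. False calls were 2, 12 and 8, and smaller changes, such as those of the subunits, were not simulated. Changes in as large a share of genes as the 51.8% called in NB4 cells, and a shift in scale between treatments, were not simulated either. The false calls therefore do not carry over to such data. Pseudocounts, filters, scalings, the replicate block, eBayes settings, the cutoff of the study, limma-voom on recovered reads and leaving out each library were the alternatives. Subtracting the olfactory receptor level, the difference of ratio changes between lines and canonical lengths were chosen after seeing the data. Coordinates and sequences come from RefSeq GRCh38.p14 tables.

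Named are the subunits, FTO, the 2 genes of each list and line with the largest absolute log2 fold change that passed an adjusted p of 0.05, and the 3 genes most like VHL and CRBN. The subunits and lists were chosen with earlier results of these data known.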

Additional observations from a re-analysis of the deposited data

Results flagged for a closer look

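These 5 results stood out for a difference in the effect of FP54 between MOLM-13 and NB4 cells. For VHL and CRBN the limma interaction tests that difference itself. The permutation of the ratios shuffles treatment within each line. Its p-values are therefore against no effect in either line, not against equal effects. VHL differed by 0.72 on the log2 scale, NB4 minus MOLM-13, and CRBN by -0.78, both in the limma interaction (adjusted p 0.00468 and 0.0105). Each interaction rests on 3 libraries per group, with VHL lower in 3 of 3 treated MOLM-13 libraries and higher in 3 of 3 treated NB4 libraries. Such non-overlap in opposite directions held for 4.31% of all genes tested in both lines. Within MOLM-13 cells VHL missed the threshold (limma adjusted p 0.0530). By median ratio VHL was at 0.10 in NB4 cells (limma adjusted p 0.359). The CRBN groups overlapped in NB4 cells. The log2 CRBN/VHL ratio differed by -1.52, CUL2/VHL by -1.03 and ELOB/VHL by -0.96, by exact permutation over 400 labelings (adjusted p 0.0175, 0.0175 and 0.0467). The ratio statistic was chosen after the data were seen, and each of these ratios contains VHL. Depth and the level of olfactory receptor genes moved with treatment in NB4 cells. With the olfactory receptor level subtracted, the VHL difference was 0.72 and the CRBN difference -0.80, and the part of depth was not tested.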

How the results depend on the processing

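In MOLM-13 cells 1 subunit was called higher and 0 lower. None was higher (0) with no filter on low values or with the replicate block, and 1, VHL, was lower under median-ratio scaling, with only genes averaging 5 RPKM or more, robust estimation or limma-voom. Leaving out 1 library gave 0 to 2 higher and 0 to 1 lower, with CUL4B higher and ELOC lower without DMSO replicate 2. In NB4 cells, 1 higher and 3 lower as deposited, median-ratio scaling gave 0 and 7, quantile normalization 5 lower, the cutoff of the study 0 and 1, and leaving out 1 library 0 to 1 higher and 1 to 5 lower. The interaction had 1 lower, CRBN, which became 0 with a filter at 5, where CRBN was not tested, and 2 with quantile normalization, which added CUL2 at -0.57. No ratio passed for the mean over both lines, and 1, CUL4A/CUL4B, passed without MOLM-13 DMSO replicate 2 (range 0 to 1). The cause of these changes was not tested, except that no filter adds tested genes and leaving out a library removes samples.

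Signs turned for small changes. CUL4B in NB4 cells was at -0.021 by median ratio, -0.16 by quantile normalization and -0.012 without DMSO replicate 2 (range -0.012 to 0.27). Interactions turned for ELOC at -0.026 and -0.0076 under these scalings, for DDB1 at -0.12 and CUL4A at -0.093 by median ratio, and on leaving out 1 library for DDB1 (-0.021 to 0.15), CUL4A (-0.018 to 0.20) and RBX1 (-0.39 to 0.0056). The mean log2 change of ELOB/ELOC ran from -0.10 to 0.061 and of CUL2/VHL from -0.012 to 0.098 on leaving out 1 library.

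Over all genes, no filter gave 74 higher and 56 lower in MOLM-13 cells (955 and 905 otherwise), 5796 and 1962 in NB4 cells and 3963 and 628 for the interaction, and a filter at 5 gave 562 and 593, 1497 and 1805, and 432 and 201. The cutoff of the study gave 1834 and 1050 in NB4 cells. MOLM-13 calls fell to 495 and 352, 316 and 224, or 256 and 213 without DMSO replicate 1, DMSO replicate 3 or FP54 replicate 1, and the interaction to 654 and 212, 607 and 200, or 613 and 199 without NB4 FP54 replicate 1, 2 or 3.

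Deviations of same-numbered libraries from their group means correlated at -0.26, -0.13 and -0.06 in MOLM-13 cells and -0.14, 0.07 and 0.12 in NB4 cells. Each group mean comes from the same 3 libraries, so these correlations constrain each other, and no reference was computed for them. They cannot show whether libraries of the same number were paired. Libraries of different numbers correlated at -0.26 to 0.22 in NB4 cells. In MOLM-13 cells DMSO replicate 1 and FP54 replicate 3 correlated at 0.59. DMSO replicate 2 and FP54 replicate 1 did so at 0.49, and DMSO replicate 3 and FP54 replicate 2 at 0.47. The remaining such pairs there were at -0.27, -0.37 and -0.46. No pairing, by number or otherwise, was tested, and only the replicate block accounted for one, by number. With the replicate block CRBN in MOLM-13 cells had an adjusted p of 0.0550, no other subunit call changed, and the interaction over all genes had 681 higher and 218 lower.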
